A study of Homo sapiens with 2 samples.

Results

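The TGF-beta, BMP and GDF signalling genes described here are 41 genes that were chosen by name, as ligands, receptors, SMADs, ID target genes and extracellular regulators, from the 60671 distinct genes of a human count table. All 41 were in the table, 4 had 0 counts in both libraries, and 37 reached the minimum of 10 counts over both libraries and were compared. C4-2B is an established castration-resistant prostate cancer (CRPC) cell line, and its cells received either vehicle or (R)-9b, a compound that inhibits the kinase ACK1 (gene TNK2). The labels give 1 µM (R)-9b overnight, whereas the methods of the study state no dose for the sequenced cells, and no further treatment or genetic change is named for either group. There was 1 poly-A library per condition from this 1 cell line, so no difference below has a replicate check.

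TGF-beta family ligands are secreted dimers that bring together type I and type II receptor kinases, and the type I receptor then phosphorylates receptor-regulated SMAD proteins. TGF-beta and activin ligands act mainly through SMAD2 and SMAD3, and BMP ligands mainly through SMAD1, SMAD5 and SMAD9, and both classes of SMAD pair with SMAD4 to enter the nucleus. SMAD6 and SMAD7 are induced by the pathway and inhibit it, and the ID genes are well-known targets of BMP signalling. GDF15 is a distant member of the family, a stress-induced cytokine whose receptor GFRAL works with the RET kinase in the hindbrain. In prostate epithelium TGF-beta is best known as a growth inhibitor whose effect is often lost in carcinoma.

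Ratios are (R)-9b over vehicle after TMM scaling, a method that corrects library totals for a few very abundant genes, and each has an exact (Clopper-Pearson) 95% interval that covers counting error only. A gene is called higher or lower below where its whole interval lay beyond 2-fold. By this rule 5 of the 37 genes compared (13.5%) were higher in the (R)-9b library, namely TGFB2, ID1, SMAD6, GDF11 and ID3, beside 4.2% of all 23446 genes compared. GDF15, INHBE and INHA were lower, which is 3 of 37 (8.11%) beside 3.44% of all genes compared. The 41 genes were chosen with earlier results of these data known, so shares above the background describe this choice of genes and are not an unbiased excess. By the weaker criterion of an interval wholly to 1 side of no difference, 15 of the 37 (40.5%) lay above and 13 (35.1%) lay below, beside 29.8% and 31.1% of all genes compared, and 9 intervals held a log2 ratio of 0. The median log2 ratio of the 37 genes was 0.16, and that of all genes compared was -0.005, so the genes moved in both directions and not as a block. The genes are many transcripts of 1 pair of libraries and not replicates of the treatment. In RNA from whole cultures, fewer cells that express a gene and less of its RNA per cell cannot be told apart.

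**Figure D1:**
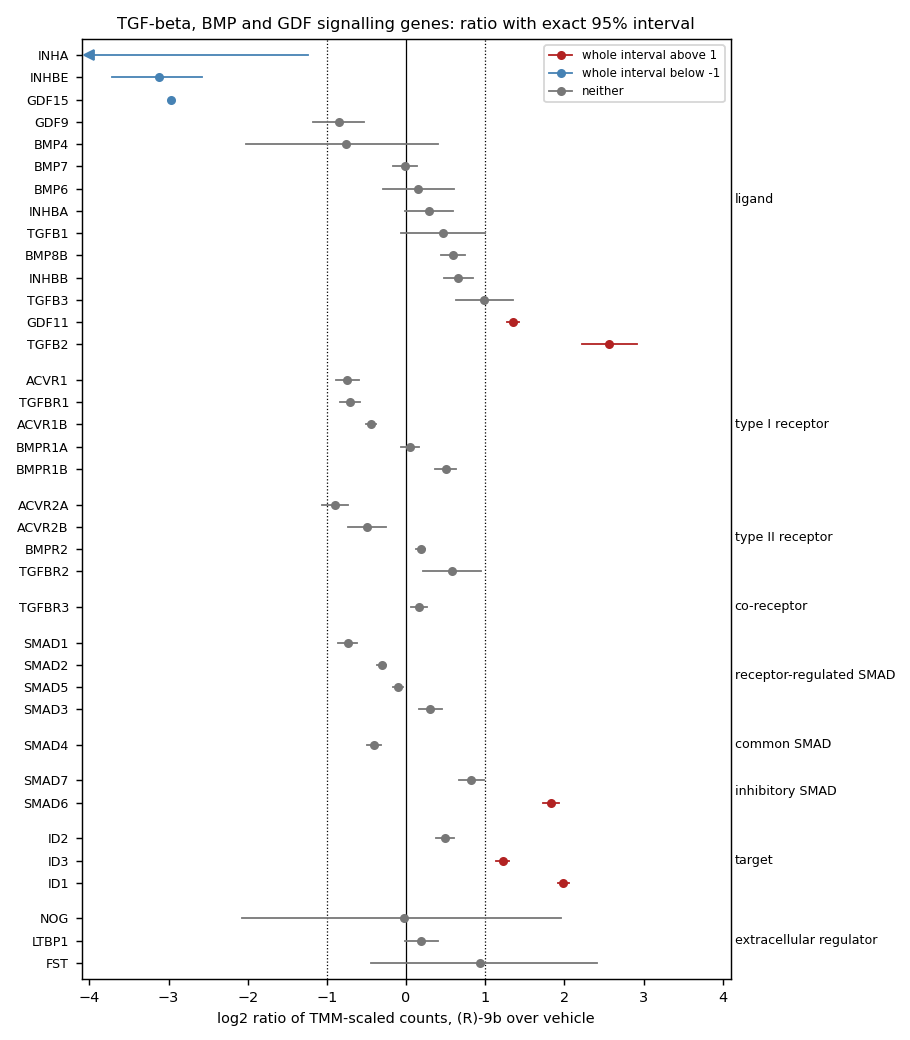
Log2 ratio of TMM-scaled counts, (R)-9b over vehicle, for the 37 genes compared, grouped by role. Points are ratios, lines are exact 95% intervals (counting error only, 1 library per condition), the dotted lines mark 2-fold, and the arrow marks INHA, which had 0 counts in the (R)-9b library; the 3 genes in blue are ligands, and the 5 in red are the ligands GDF11 and TGFB2, the inhibitory SMAD6 and the targets ID1 and ID3.

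The stretches of 250 bases before the transcription start are shown for 3 of the genes that were higher, from RefSeq on GRCh38.p14, since SMAD proteins bind short DNA elements in such regions. ID1 was the called gene with the most counts among those that were higher, and SMAD6 and TGFB2 were added after their matches had been seen because each held a SMAD element. The capitals mark the letters GTCTAGAC, a palindromic SMAD element, in SMAD6 and the letters CAGACA, a SMAD element of a single copy, in TGFB2. No capitals are set in ID1, where none of the 5 motifs searched was found. The stretch of GDF15, the called gene with the most counts among those that were lower, was also planned but is not shown. None of the 5 motifs was found there either.
ID1, chr20:31605039-31605288, plus strand: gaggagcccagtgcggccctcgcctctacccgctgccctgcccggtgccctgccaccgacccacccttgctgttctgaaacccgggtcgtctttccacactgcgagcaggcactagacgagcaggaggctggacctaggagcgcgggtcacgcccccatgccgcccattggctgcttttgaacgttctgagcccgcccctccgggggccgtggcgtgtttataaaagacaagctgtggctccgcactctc
SMAD6, chr15:66701986-66702235, plus strand: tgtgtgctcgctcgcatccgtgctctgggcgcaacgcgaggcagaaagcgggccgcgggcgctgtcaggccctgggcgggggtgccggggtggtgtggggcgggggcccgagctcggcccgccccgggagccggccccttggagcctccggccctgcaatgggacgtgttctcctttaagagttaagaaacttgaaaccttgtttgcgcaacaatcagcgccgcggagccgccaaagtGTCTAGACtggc
TGFB2, chr1:218345086-218345335, plus strand: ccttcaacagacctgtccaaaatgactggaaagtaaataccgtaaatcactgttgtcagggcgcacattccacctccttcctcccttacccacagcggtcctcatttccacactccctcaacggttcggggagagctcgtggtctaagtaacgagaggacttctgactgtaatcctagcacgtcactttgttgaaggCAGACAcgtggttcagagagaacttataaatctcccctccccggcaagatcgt

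Promoter windows were on hand for 35 of the 41 genes, as 67 windows because a gene can have several starts. INHBE, which was lower, had no window and was not searched, and nor were BMP2, BMP3, BMP7, GFRAL and NOG. The palindrome GTCTAGAC was found in 1 of these 67 windows (1.49%), that of SMAD6, and in 0.183% of all 34943 windows. In SMAD6 it lay from base 12 to base 5 before the RefSeq start, and GENCODE 29 begins the gene at base 66702228 of chromosome 15, inside these letters. CAGACA was found in 12 of 67 windows (17.9%) and in 13.6% of all windows, and in TGFB2 it lay from base 53 to base 48 before the RefSeq start. GENCODE 29 begins TGFB2 only at base 218346235 of chromosome 1, beyond the end of this window at 218345335, so the starts differ. The GC-rich SMAD element GGCGCC was found in 14 of 67 windows (20.9%) and in 16.4% of all windows. The AP-1 element TGANTCA was found in 5 of 67 windows (7.46%) and in 6.59% of all windows. The ATF4 and C/EBP element TGATGNAA was found in 0 of 67 and in 3.15% of all windows. For so few windows that is near the background and is no result about these genes. Both strands were searched, and GTCTAGAC shares the letters AGAC with CAGACA. Such matches are descriptions of these letters, not binding sites.

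Among the ligands, GDF15 was by far the most abundant gene, and it was lower after (R)-9b. It had 144034 counts after vehicle and 15651 after (R)-9b. Its scaled level in CPM (counts scaled to a common library size) was 2163 after vehicle and 277 after (R)-9b, and its rank among all genes moved from 27 to 530. The log2 ratio was -2.96 with an interval from -2.99 to -2.94, which is 7.80-fold lower. GDF15 (ENSG00000130513) lies on chromosome 19 from 18374731 to 18389176 in hg38 (GENCODE 29), and none of its exon bases is shared with another gene. Even at the lower level GDF15 had the most counts of any of the 17 ligand genes in both libraries.

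INHBE encodes the beta E subunit of the activins and is best known from liver, where it is induced by stress. It had 309 counts in vehicle and 30 in (R)-9b, a log2 ratio of -3.13 with an interval from -3.72 to -2.58, or 8.73-fold lower. The interval of INHBE takes in the ratio of GDF15, so the order of these ratios is not settled by the counts. INHA, the alpha subunit of the inhibins, had 12 counts in vehicle and 0 in (R)-9b. The end of its interval nearest 0 was a log2 ratio of -1.24. Most low counts in these libraries are even numbers, and with halved counts the interval of INHA reached a log2 ratio of 0.002, so its call was lost and rests on very few fragments.

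TGFB2 and GDF11 were the ligands that were higher. TGFB2 is 1 of 3 genes for TGF-beta itself and had 84 counts in vehicle and 422 in (R)-9b, a log2 ratio of 2.57 with an interval from 2.23 to 2.92. Of its exon bases 26.6% are shared with TGFB2-OT1, a short non-coding gene on the same strand, so reads there could be set aside as ambiguous. TGFB3, another TGF-beta gene, had 106 counts in vehicle and 178 in (R)-9b, a log2 ratio of 0.99 with an interval from 0.63 to 1.35, so its ratio was just under 2-fold and its interval reached well below. TGFB1 had 58 and 68 counts, a log2 ratio of 0.47 whose interval from -0.06 to 1.00 held 0. The intervals of TGFB2 and TGFB3 do not overlap each other, whereas those of TGFB1 and TGFB3 do. In level per length (TMM-scaled CPM per kb of exon), TGFB1, TGFB2 and TGFB3 stood at 0.269, 0.245 and 0.324 in vehicle, and TGFB2 was the highest of these genes in (R)-9b at 1.45, beside 0.372 for TGFB1 and 0.642 for TGFB3.

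GDF11, a close relative of myostatin that signals through activin receptors, had 1949 counts in vehicle and 4221 in (R)-9b. Its log2 ratio was 1.35 with an interval from 1.28 to 1.43, and 4.51% of its exon bases are shared with SARNP and another gene on the opposite strand. The GDF11 call was lost once each library was given an added coefficient of variation of 0.1. GDF9, an oocyte factor, went the other way with 259 and 122 counts, a log2 ratio of -0.85 with an interval from -1.17 to -0.53, without reaching the call. Among the activin beta subunits other than INHBE, INHBB had 445 and 597 counts and a log2 ratio of 0.66 (interval 0.48 to 0.84). INHBA had 184 and 191 counts and a log2 ratio of 0.29 (interval -0.01 to 0.59). So the activin and inhibin subunit genes differed among themselves, with INHBE and INHA lower, INHBB above 0 without a call, and INHBA not distinguishable from no difference at this depth.

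Of the BMP ligand genes compared, none was called in either direction. For so few genes that is near the shares of 4.2% higher and 3.44% lower over all genes, and is no result about BMP ligands. BMP7, linked to epithelial differentiation, had 730 counts in vehicle and 613 in (R)-9b, a log2 ratio of -0.01 with an interval from -0.17 to 0.14. BMP6 had 89 and 84 counts and a log2 ratio of 0.15 (interval -0.29 to 0.60). BMP4 had 20 and 10 counts and a log2 ratio of -0.76, whose interval from -2.02 to 0.40 is too wide to tell a fall from a rise. BMP8B had 627 and 800 counts and a log2 ratio of 0.59 (interval 0.44 to 0.74). That value is uncertain, because BMP8B and BMP8A are near-identical copies and BMP8A, which is outside the 41 genes, had 185 and 110 counts, a log2 ratio of -0.51. BMP2, BMP3 and BMP5 had 0 counts in both libraries, which allows up to 3 counts in each.

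The make-up of the ligand RNA therefore differed between the libraries. GDF15 held 96.73% of the counts of the 17 ligand genes in vehicle (exact 95% interval 96.64% to 96.82%) and 68.09% in (R)-9b (67.48% to 68.69%). GDF11 held 1.31% in vehicle and 18.4% in (R)-9b, and TGFB2 held 0.0564% and 1.84%. By level per length the share of GDF15 was 98.7% in vehicle and 86.2% in (R)-9b. The summed counts of the ligand genes had a log2 ratio of -2.46, and without GDF15 the sums were 4872 in vehicle and 7336 in (R)-9b, a log2 ratio of 0.83 with an interval from 0.78 to 0.88. Most of that difference was GDF11, and without GDF15 and GDF11 the sums were 2923 and 3115, a log2 ratio of 0.33 with an interval from 0.26 to 0.40. INHBE, INHA and GDF9 lay below 0 within this remainder.

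**Figure D2:**
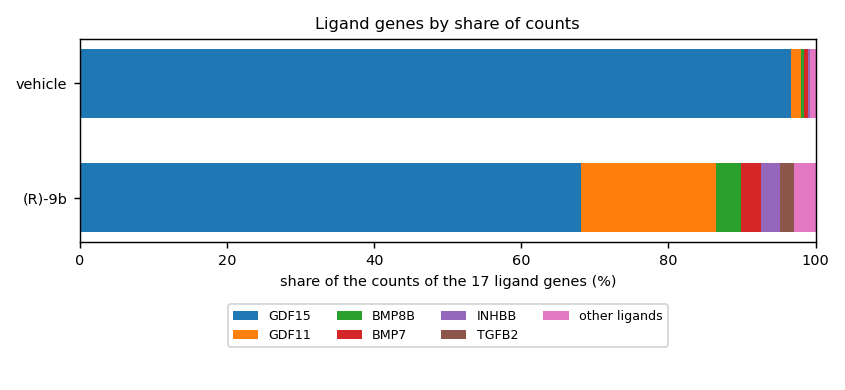
Share of the counts of the 17 ligand genes (%) held by each gene in the vehicle and the (R)-9b library, with 1 library per bar. GDF15 holds 96.73% of the bar in vehicle and 68.09% in (R)-9b, and GDF11 widens from 1.31% to 18.4%.

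None of the 10 receptor and co-receptor genes compared passed 2-fold, and with 4.2% of all genes higher and 3.44% lower, no call among 10 genes is near the background and is no result about receptors. Among the type I receptors, ACVR1B, which serves activins, was the most abundant per length, with 5175 counts in vehicle and 3240 in (R)-9b and a log2 ratio of -0.44 (interval -0.50 to -0.37). TGFBR1, the TGF-beta type I receptor, had 1605 and 834 counts and a log2 ratio of -0.71 (interval -0.83 to -0.59). ACVR1, a BMP-responsive receptor, had 1196 and 607 counts and a log2 ratio of -0.74 (interval -0.88 to -0.60). These 3 genes lay below 0 and the intervals of TGFBR1 and ACVR1 overlap, whereas that of ACVR1B lies nearer 0 than both. BMPR1B had 900 and 1079 counts and a log2 ratio of 0.50 (interval 0.37 to 0.63). BMPR1A had 1398 and 1227 counts and a log2 ratio of 0.05 (interval -0.06 to 0.16). Summed over the 5 type I receptors, counts were 10274 and 6987, a log2 ratio of -0.32 with an interval from -0.36 to -0.27.

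The type II receptors lay on both sides of 0. ACVR2A and ACVR2B, which bind activins and several GDFs, lay below 0, with 992 and 452 counts for ACVR2A and 379 and 229 for ACVR2B. Their log2 ratios were -0.90 (interval -1.06 to -0.73) and -0.49 (interval -0.73 to -0.25), and ACVR2A was the gene nearest to the call among those lower. About 7.98% of the exon bases of ACVR2A are shared with ORC4 and an antisense gene on the opposite strand. BMPR2, the BMP type II receptor, had 5099 and 4923 counts and a log2 ratio of 0.19 (interval 0.13 to 0.24). TGFBR2, which TGF-beta needs to bind, had only 114 and 144 counts and a log2 ratio of 0.57 (interval 0.21 to 0.94). Per length TGFBR2 stood at 0.364 in vehicle and 0.542 in (R)-9b, well below TGFBR1 at 3.52 and 2.16. The sum over the 4 type II receptors had a log2 ratio of 0.04 with an interval from -0.01 to 0.09. The co-receptor TGFBR3, or betaglycan, had 1732 and 1645 counts and a log2 ratio of 0.16 (interval 0.07 to 0.26). GFRAL, the receptor of GDF15, had 0 counts in both libraries, and its partner RET, which is outside the 41 genes, had 36 and 31.

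Of the 7 SMAD genes, SMAD6 was higher and none was lower, beside 4.2% and 3.44% of all genes compared. Of their intervals, 3 lay above 0 and 4 below, beside 29.8% and 31.1% of all genes compared. These are counts of few genes and no result about SMADs as a set. SMAD6, which acts mostly on BMP signalling, had 1134 counts in vehicle and 3419 in (R)-9b, a log2 ratio of 1.83 with an interval from 1.73 to 1.93. SMAD7, which acts on both arms, had 558 and 837 counts and a log2 ratio of 0.82 (interval 0.67 to 0.98), above 0 but short of the call. Together they had 1692 and 4256 counts, a log2 ratio of 1.57, and most of both sums was SMAD6. The BMP-arm SMAD1 had 1776 and 903 counts and a log2 ratio of -0.74 (interval -0.86 to -0.62). SMAD5, the more abundant SMAD of that arm, had 4371 and 3460 counts and a log2 ratio of -0.10 (interval -0.16 to -0.03). Its place below 0 hangs on the scaling, since under upper quartile scaling its log2 ratio was -0.06 and its interval held 0. Of its exon bases 8.73% are shared with other genes, SMAD5-AS1 among them. The intervals of SMAD1 and SMAD5 lie apart, so the difference between their ratios is wider than counting error, which is all that these intervals cover.

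In the TGF-beta and activin arm, SMAD2 had 6121 and 4192 counts and a log2 ratio of -0.31 (interval -0.36 to -0.25), whereas SMAD3 had 774 and 811 counts and a log2 ratio of 0.31 (interval 0.16 to 0.45). SMAD4, the partner of both arms, had 2606 and 1667 counts and a log2 ratio of -0.41 (interval -0.50 to -0.32). Summed over the 4 receptor-regulated SMADs, counts were 13042 and 9366, a log2 ratio of -0.24 with an interval from -0.28 to -0.20.

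The ID genes, which encode helix-loop-helix proteins without a DNA-binding region that hold back differentiation factors, all lay above 0. ID1 had 2274 counts in vehicle and 7639 in (R)-9b, a log2 ratio of 1.99 with an interval from 1.92 to 2.05. ID3 had 1826 and 3603 counts and a log2 ratio of 1.22 (interval 1.14 to 1.30), a call that was also lost with the added variation of 0.1. ID2 had 1173 and 1402 counts and a log2 ratio of 0.50 (interval 0.38 to 0.61), which was short of the call. The 3 intervals do not overlap, so the order ID1, ID3, ID2 is wider than counting error. Together the ID genes had 5273 and 12644 counts, a log2 ratio of 1.50 with an interval from 1.45 to 1.55. After GDF15 the ID genes were also among the most abundant of the 41 genes per length, at 27.7 and 110 for ID1 and at 15.3 and 35.5 for ID3 in vehicle and (R)-9b. In (R)-9b the level of ID1 came close to the 133 of GDF15, which had stood at 1037 in vehicle. ID2 stood at 7.99 and 11.3, and ACVR1B, between ID3 and ID2 in vehicle, at 13.7 and 10.1.

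**Figure D3:**
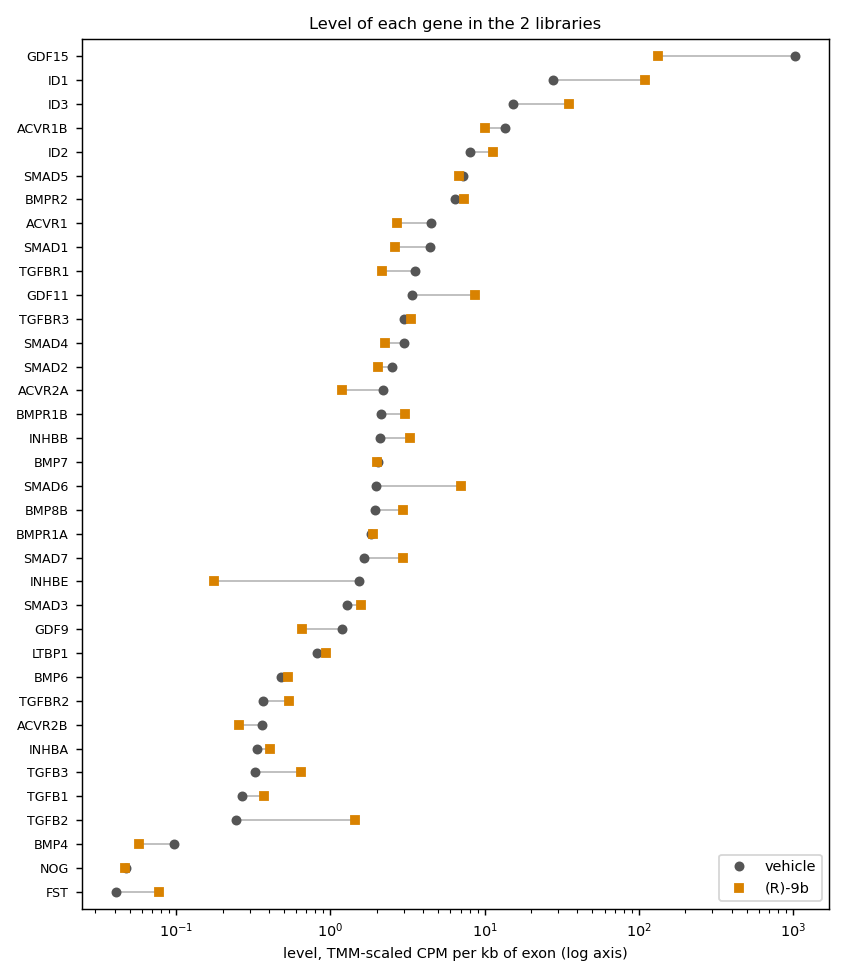
Level of 36 genes in TMM-scaled CPM per kb of exon (log axis), with circles for vehicle and squares for (R)-9b, 1 library each, ordered by the level in vehicle. GDF15 goes from 1037 to 133 and remains at the top, ID1 goes from 27.7 to 110, and INHBE and TGFB2 show the longest lines among the genes of low level; INHA and the 4 genes at 0 in both libraries cannot be placed on the axis.

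The extracellular regulators among the 41 genes gave no call, and all 3 intervals held 0. For 3 genes no call is near the shares of 4.2% higher and 3.44% lower over all genes, and is no result about regulators. LTBP1, which anchors latent TGF-beta in the matrix, had 400 and 388 counts and a log2 ratio of 0.19 (interval -0.01 to 0.40). Noggin (NOG), a BMP trap, had 6 and 5 counts, and follistatin (FST), an activin trap, had 8 and 13. Their intervals, from -2.08 to 1.95 and from -0.44 to 2.42, are so wide that a change of 2-fold was not detectable at this depth.

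A deposited table of estimated transcript counts was read for the called genes. GDF15-201, which codes for the protein, carried 96.0% of the gene's estimate in vehicle and 95.3% in (R)-9b, with 54161 and 5784 estimated counts. ID1-202 had 838 and 2804 estimated counts, TGFB2-202 had 30.2 and 182, and GDF11-202 had 235 and 487. INHBE-201 had 125 and 13, ID3-204 had 685 and 1251, and INHA-201 had 6 and 0. The leading transcript of each of these genes went the same way as the gene. For SMAD6 the estimate rested on SMAD6-205, a processed transcript that is not annotated as coding, with 99.4 and 571 estimated counts. The ID3 transcripts stand under another gene identifier than the ID3 of the gene counts. SMAD6-201 and GDF11-201 were not analysed here, and these estimates are therefore not the whole of the RNA of SMAD6 and GDF11.

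**Figure D4:**
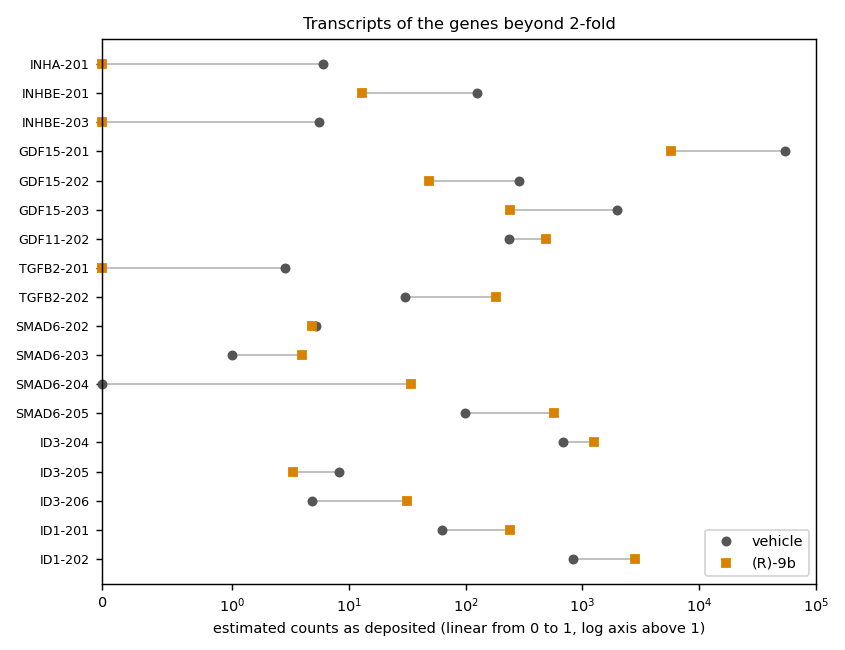
Estimated counts as deposited for 18 transcripts of the 8 genes beyond 2-fold (axis linear from 0 to 1 and log above 1), with circles for vehicle and squares for (R)-9b. GDF15-201 holds 54161 and 5784 estimated counts, and ID1-202 holds 838 and 2804.

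A wider set of 96 other genes of the pathway was read in the same way, of which 12 had 0 counts in both libraries, 10 were under the minimum and 74 were compared. This list too was chosen with earlier results of these data known, which limits its shares in the same way. Of these, 8 (10.8%) were higher and 2 (2.70%) were lower, beside 4.2% and 3.44% of all genes compared. Of their intervals, 33 (44.6%) lay above 0 and 22 (29.7%) below, beside 29.8% and 31.1% of all genes compared, and the median log2 ratio was 0.07. The shares lower and below 0 were thus near those of all genes. Of the 15 target genes, 4 (26.7%) were higher and 2 (13.3%) were lower, beside the same 4.2% and 3.44%, and these are counts of few genes. SNAI2, a repressor of epithelial genes, had 392 and 1572 counts and a log2 ratio of 2.24 (interval 2.08 to 2.41). ATOH8, a BMP target, had 67 and 225 counts and a log2 ratio of 1.99 (interval 1.59 to 2.40). HEY1 had 90 and 214 counts and JUNB 4384 and 8570, with log2 ratios of 1.49 and 1.20. HEY1 is also known as a target of Notch and JUNB as an immediate early gene, so neither reports on this pathway alone.

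Other targets went the opposite way. CCN1 had 777 and 245 counts, a log2 ratio of -1.43 (interval -1.64 to -1.22), and CCN2 had 22 and 2 counts, a log2 ratio of -3.22 (interval -6.35 to -1.20). CCN1 and CCN2 code for matrix proteins that TGF-beta induces in many cells and that YAP also induces. With halved counts the interval of CCN2 came up to -0.44 and the interval of HEY1 down to 0.97, and both then missed the call. CDKN1A, a growth arrest target, had 16437 and 10071 counts, a log2 ratio of -0.47.

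Among the other ligand, receptor and regulator genes, AMH, the anti-Müllerian hormone, had 195 and 423 counts and a log2 ratio of 1.35 (interval 1.11 to 1.61). THBS1, which can activate latent TGF-beta, was abundant at 22720 and 45591 counts, a log2 ratio of 1.24 (interval 1.22 to 1.27). NBL1, a BMP antagonist, had 95 and 482 counts and a log2 ratio of 2.58, and 19.0% of its exon bases are shared with MINOS1-NBL1 and MINOS1. BGN, a proteoglycan that binds TGF-beta, had 7 and 51 counts and a log2 ratio of 3.10 (interval 1.96 to 4.49). None of the 8 receptor or co-receptor genes and none of the 21 intracellular regulators compared was beyond 2-fold, which for so few genes is also near the shares of 4.2% and 3.44% over all genes. SMAD9, the remaining SMAD of the BMP arm, had 3814 and 1861 counts and a log2 ratio of -0.80 (interval -0.88 to -0.72), beside -0.74 for SMAD1.

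**Figure D5:**
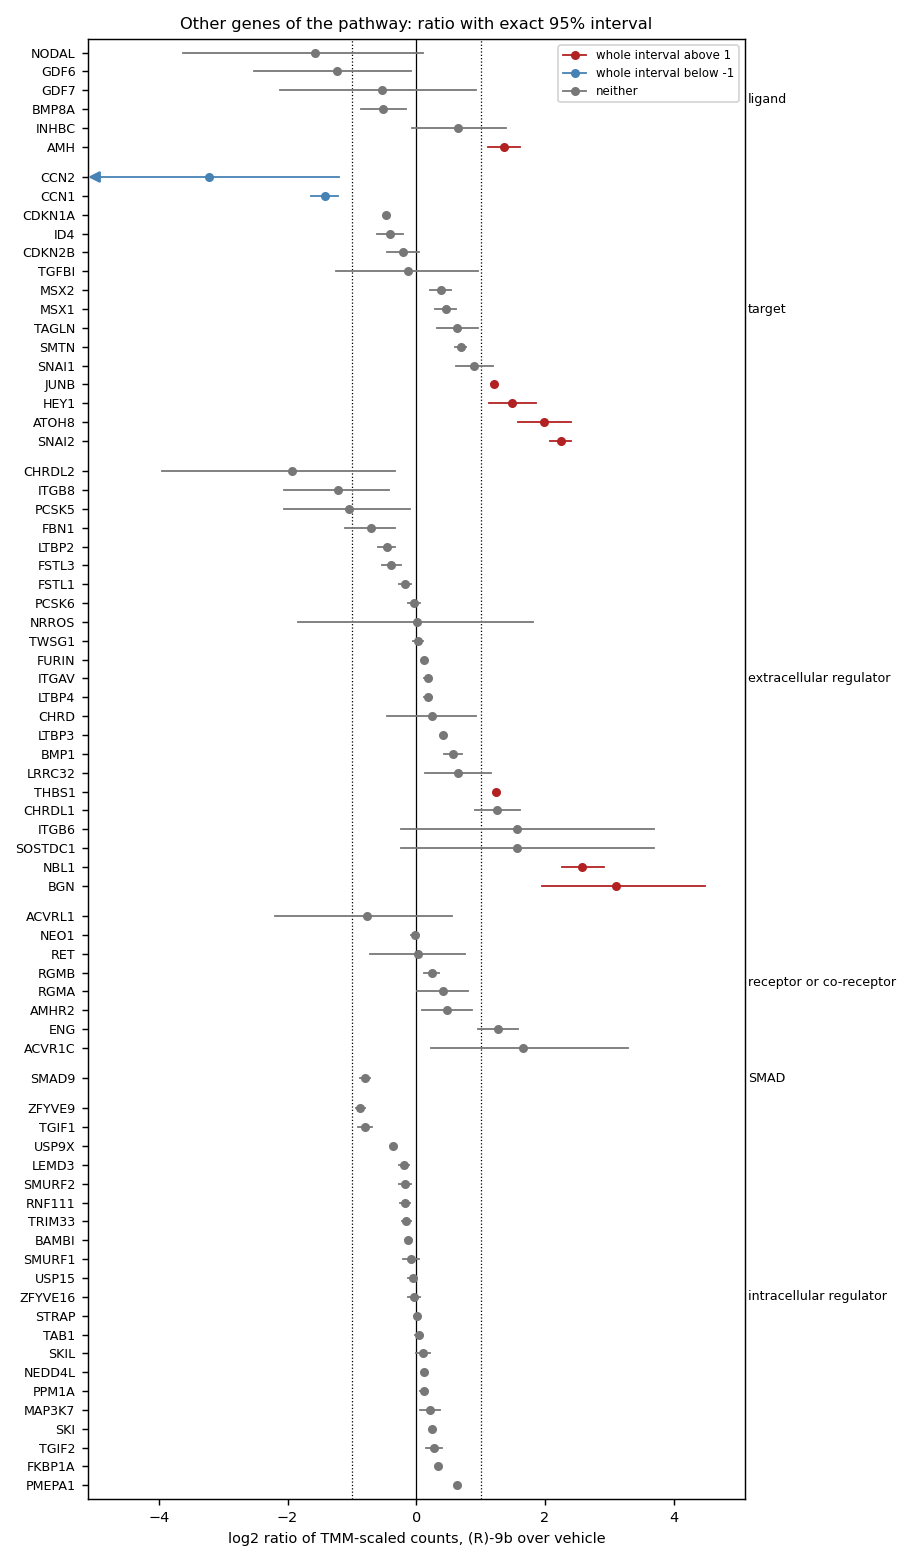
Log2 ratio of TMM-scaled counts, (R)-9b over vehicle, for the 74 other pathway genes compared, grouped by role, with exact 95% intervals (counting error only, 1 library per condition) and dotted lines at 2-fold. The 8 genes in red include SNAI2, ATOH8 and NBL1, the 2 in blue are CCN1 and CCN2, and no intracellular regulator is coloured, although 8 of their 21 intervals lie above 0 and 8 below.

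The libraries held 65207444 counts in vehicle and 57653965 in (R)-9b, and mitochondrially encoded genes took 1.49% and 9.54% of them. TMM without these genes moved the median ratio by 0.001 (log2) and changed no call among the 41 genes. All 9 prostate luminal markers were detected, with 146597 and 297728 counts for KLK3, although the labels name breast cancer as the tumour type. Immune markers were almost absent, with 0 counts for PTPRC and CD3D in both libraries and a summed level of 0.195 and 0.319 CPM over the 7 genes. The 7 stromal markers summed to 21.5 and 40.7 CPM, mostly COL1A1 with 1114 and 2004 counts, whereas COL1A2 had 1 and 3, PDGFRA 0 and 1, and LUM 6 and 0. The 4 endothelial markers summed to 11.7 and 7.69 CPM, mostly VWF, with CDH5 and KDR at 0 in vehicle. The part of these markers in the results above was not tested.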

How the data were processed

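RNA sequencing of C4-2B cells was analysed, with 1 library per condition, grouped by the treatment in the labels. The submitters' processing notes name STAR 2.5.1a, featureCounts 1.4.6-p5 from Subread, Salmon 0.8.2, bcl2fastq, edgeR, limma and genome build hg38, without saying which step each did, and the methods of the study give other versions, so which were used is uncertain. The authors deposited whole-number counts of reads per gene, the same values as CPM (counts divided by the library total), moderated log2 CPM (the kind of moderation is not stated), and estimated counts per transcript. The strand setting of the counting is not given in the sources used here. Low counts were mostly even (72.2% of counts up to 20 in vehicle and 70.3% in (R)-9b), so mates of a pair may have been counted singly and intervals may be too narrow. There were 0 per-sample columns of other series.

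Repeated lines were dropped, leaving 60671 distinct genes of 60871 lines, 33078 of them with a count. Counts were scaled by TMM (edgeR 4.0.16, R 4.3.3), which multiplied the totals by 1.02 and 0.979, and ratios were taken for genes whose 2 counts summed to 10 or more, with exact 95% Clopper-Pearson intervals (Python 3.11.15, scipy 1.17.1). No test of conditions was possible with 1 library each, and no p-value is given. In medians and in most member ratios under the alternatives, counts under 3 in a library were set to 3. Levels per length used union exon lengths of GENCODE 29, which is not the annotation of the counts, and are approximate. Scripts were tested on simulated counts. Motifs were searched in 250 bases before each RefSeq start. Figures used matplotlib 3.10.9.

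The 41 genes and all lists were chosen with earlier results of these data known. By the rule for named genes, every gene of the 41 is accounted for, other pathway genes and transcripts are named where called, and further names, CDKN1A, SMAD9, BMP8A and RET among them, were added after their values had been seen. Some genes of the lists are not reported here. Alternatives were other scalings (total counts, DESeq2 1.42.0 size factors, upper quartile, TMM without mitochondrial genes), halved counts, estimated transcript counts (rounded), a coefficient of variation of 0.1 added per library, the ratio itself in place of the interval, minimum counts of 1 and 50, the deposited CPM and log2 CPM, and 5 added counts.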

Additional observations from a re-analysis of the deposited data

How the results depend on the processing

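No paired analysis was possible because there was 1 library per condition, and for the same reason no library could be left out. None of the members whose interval excluded 0 changed direction under any alternative tried, and 383 of 399 member values stayed within the original interval. Many of these values could not move. The minimum counts of 1 and 50 left every ratio as it was, and halved counts did so too unless a count met the floor of 3. The deposited CPM gave the same ratios as scaling by total counts. TGFB2, GDF15, INHBE, SMAD6 and ID1 kept their calls under all 10 alternatives that give a call. The minimum counts of 1 and 50 are among the 10 and could not change a call of these genes. With a coefficient of variation of 0.1 added per library, 3 members were higher in place of 5, as GDF11 and ID3 lost their calls. In that setting 4 other pathway genes were higher in place of 8, and 1 was lower in place of 2. Member intervals wholly above and below 0 numbered 12 and 9 there, in place of 15 and 13, with no interval for INHA. Under upper quartile scaling they numbered 17 and 12. With estimated transcript counts, the log2 ratio of SMAD6 was 2.78 in place of 1.83. TGFBR2 became a call there, on 0 and 11.1 estimated counts of the retained-intron transcript TGFBR2-205. The list of TGFBR2 transcripts read was not complete, so these estimates are not the whole of its RNA. The log2 ratio of TGFBR2, 2.12 in place of 0.57, is not a measured ratio, because the 0 was set to 3. ID3 was not compared there, because its transcripts carry another gene identifier. INHA lost its call with halved counts, and was not compared with estimated transcript counts or a minimum of 50 counts. With the added variation no interval could be computed for INHA, because it had 0 counts in the (R)-9b library. That setting therefore says nothing about its call. Of the other pathway genes, 1 was lower with halved counts and with a minimum of 50 counts, and by the ratio in place of the interval 13 were higher and 7 lower. Over all genes, the calls ranged from 513 to 2695 higher and from 502 to 2235 lower. The 502 came from the added variation, which could give no call to a gene with 0 counts in 1 library, so it may be too low. The median of the members ranged from 0.10 to 0.23 (log2). Depth limits the genes with few counts, BMP4, NOG, FST and INHA among the members.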
